A study of Caenorhabditis elegans with 2 samples.

Results

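The cuticle collagen genes are the members described here: 174 of the 19973 protein-coding genes of the nuclear Caenorhabditis elegans genome. They comprised 156 genes whose symbol begins with col- and 18 collagen genes known by a mutant phenotype name (lon-3, rol-6, sqt-1 to sqt-3, bli-1, bli-2 and 11 dpy genes). They were chosen by symbol, not by a measured value. The peaks assigned to a gene were those with a summit from 1 kb upstream of its annotated start to its end, an interval called the gene window below.

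Chromatin immunoprecipitation followed by sequencing (ChIP-seq) of ZTF-1, a zinc finger protein carrying an eGFP tag, was performed with an antibody against GFP on whole L2 larvae, aged 28.5 hours, in 2 biological replicates. The strain was OP207, in which a fosmid transgene carries ztf-1 fused to 2XTY1-eGFP-3XFLAG, together with unc-119. Cultures were synchronised from L1 larvae starved after bleaching, and chromatin was sheared by sonication. All samples formed 1 group, so no condition was compared with another, and a control experiment was not analysed here. The protein followed is the transgene's product, and the whole animal was used, so epidermal cells could not be told apart from other tissues.

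Cuticle collagens are short secreted proteins built around repeats of glycine followed by 2 other residues, often proline. The epidermis makes them in a large burst before each moult, prolyl hydroxylases and proteases process them, and they are cross-linked into the exoskeleton of the worm. Different collagens build the annular furrows, the struts and the other layers of the cuticle, and mutants are short (dumpy), long, rolling, squat or blistered. One member chosen by symbol, col-99, encodes a membrane-associated collagen rather than a typical cuticle collagen.

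The coding sequences bore out the label. Codons of the form GGN, which encode glycine, made up a median of 20.7% of the codons of collagen genes, against 4.85% over all protein-coding genes. Codons of the form CCN, which encode proline, made up 15.01% in collagen genes and 4.33% over all genes. The median GC content of coding sequence was 54.9% in collagen genes and 42.5% over all genes. Every one of the 174 collagen genes lay above the all-gene median, with a range of 43.4% to 62.6%.

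The sequences at the summits of the strongest collagen peaks carried these repeats. The stretches below each hold 99 bases of coding sequence around a summit, from the RefSeq copy of WBcel235 (ce11). They are written 5′ to 3′ on the strand of the gene. Capitals mark in-frame glycine codons with another glycine codon 3 codons away, the spacing of the collagen repeat. They show the strongest collagen gene (col-171, chrX:6334712-6334810, plus strand), the strongest phenotype-named one (lon-3, chrV:12198071-12198169, minus strand) and the gene just outside the threshold (col-174, chrX:7547509-7547607, plus strand). The repeat-rich col-103 (chrIV:762672-762770, minus strand) and col-96 (chrIII:11706331-11706429, minus strand), whose summit lay outside the repeat, are set beside them.
col-171: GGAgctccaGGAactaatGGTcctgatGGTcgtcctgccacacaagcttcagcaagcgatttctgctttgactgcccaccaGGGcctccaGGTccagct
lon-3: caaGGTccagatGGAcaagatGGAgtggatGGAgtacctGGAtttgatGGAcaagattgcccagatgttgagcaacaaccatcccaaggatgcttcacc
col-174: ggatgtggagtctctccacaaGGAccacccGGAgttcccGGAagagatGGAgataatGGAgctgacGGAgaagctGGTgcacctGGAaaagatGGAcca
col-103: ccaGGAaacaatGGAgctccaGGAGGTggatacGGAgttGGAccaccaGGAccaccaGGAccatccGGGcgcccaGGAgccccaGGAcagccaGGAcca
col-96: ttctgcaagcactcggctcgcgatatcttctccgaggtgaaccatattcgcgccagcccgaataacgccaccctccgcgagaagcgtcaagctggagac

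The number of capital codons in these stretches was 6 for col-171, 6 for lon-3, 9 for col-174, 12 for col-103 and 0 for col-96. Their GC content was 57.6% for col-171, 49.5% for lon-3, 55.6% for col-174, 64.6% for col-103 and 58.6% for col-96. The col-96 stretch shows that a strong summit could lie in GC-rich collagen sequence without a glycine repeat. Its merged peak spanned chrIII:11706111-11707064, far beyond the stretch, so the stretch describes the summit and not the whole peak.

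The peak lists came as 4 pairs, each with a ranked list of all entries and a thresholded list of entries with an irreproducible discovery rate (IDR) of 0.01 or less. The IDR is a rank-based measure of how well a peak recurs in a pair of lists. One pair of lists compared the 2 replicates, a further pair of the whole series is called pooled here although its inputs are not stated, and each replicate had a pair of its own. The replicate-compared ranked list held 43349 peaks after overlapping entries were merged, and its thresholded list held 214. The ranked list is permissive, since the median q-value of its entries was 0.939, so a ranked peak is a called region and not an established binding site. Each peak carries a deposited signal, the strength given to it by the authors without a stated unit, which serves here to order and describe peaks of the same list. No read counts were given, so the depth behind each value is unknown.

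Only a few collagen genes held a peak that recurred between replicates at the threshold. In the replicate-compared thresholded list, 3 of the 174 collagen genes had a summit in their window, namely col-171, lon-3 and col-50. That is 1.72% of collagen genes, with an exact 95% binomial interval of 0.357% to 4.96% that covers counting error only, against 1.02% of all protein-coding genes. The all-gene share lay inside this interval. In the pooled thresholded list, 2 collagen genes (1.15%, interval 0.140% to 4.09%) had a summit, col-171 and lon-3, against 0.736% of all genes. In the thresholded lists of the single replicates no collagen gene had one, which allows a share of up to 2.10% by the same interval. The shares over all genes there were 0.100% in replicate 1 and 0.0901% in replicate 2.

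The peak in col-171, a cuticle collagen gene of the X chromosome (X:6334298-6335221, plus strand), had its summit in coding sequence 464 bp after the gene start. Its signal was 111.6 in the replicate-compared list, and its paired signals were 50.8 in replicate 1 and 52.5 in replicate 2. Paired signals are those of the matched peak in each replicate and do not sum to the signal. Both replicates gave nearly the same value. Its IDR was 0.00238 and its q-value 0.0756. It ranked first among collagen genes and 65th among all genes.

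The peak in lon-3 (V:12197437-12198645, minus strand), a collagen whose loss makes worms long, had its summit in coding sequence 526 bp after the start. Its signal was 95.7, with 57.6 in replicate 1 and 38.6 in replicate 2. Replicate 1 was the higher. The IDR was 0.00570 and the q-value 0.314. The summit also lay in the window of the neighbouring gene ogdh-2.

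The peak in col-50 (I:3651236-3652702, minus strand) had its summit in coding sequence 667 bp after the start. Its signal was 95.2, with 59.1 in replicate 1 and 35.6 in replicate 2. Replicate 1 was again higher. Its IDR was 0.00822 and its q-value 0.327. This peak did not pass in the pooled list.

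Just outside the threshold lay col-174 (X:7546809-7548365, plus strand), with an IDR of 0.0101. Its summit was coding, 748 bp after the start, with a signal of 83.9 and paired values of 43.6 in replicate 1 and 44.7 in replicate 2. The summit also lay in the window of F46C8.1. Next came sqt-2, a collagen whose alleles give squat or rolling worms, with an IDR of 0.0214. Its summit was in an intron, 909 bp after the start, with a signal of 78.5 and paired values of 42.3 in replicate 1 and 37.4 in replicate 2. This summit lay in the window of enee-1 as well. At an IDR of 0.05 or less, 9 collagen genes (5.17%, interval 2.39% to 9.59%) would have been counted, against 4.19% of all genes, which lies inside the interval. None of the collagen peaks had a q-value of 0.05 or less.

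The other members among the 10 strongest were col-69, col-103, col-89, col-111 and col-86. Signal was 85.6 for col-69, with paired values of 59.6 in replicate 1 and 25.5 in replicate 2. For col-103 it was 80.8, with 53.4 in replicate 1 and 22.8 in replicate 2. In these genes the paired signal was higher in replicate 1, and col-69, first among collagen genes in replicate 1's own list, ranked 48th in replicate 2's. Signal was 80.5 for col-89 (34.7 in replicate 1, 34.9 in replicate 2), 80.2 for col-111 (35.9 in replicate 1, 43.5 in replicate 2) and 78.6 for col-86 (41.5 in replicate 1, 36.3 in replicate 2). These genes had similar values in both replicates. Among the 12 strongest members, 11 had their strongest summit in coding sequence, and sqt-2 was the exception.

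**Figure D1:**
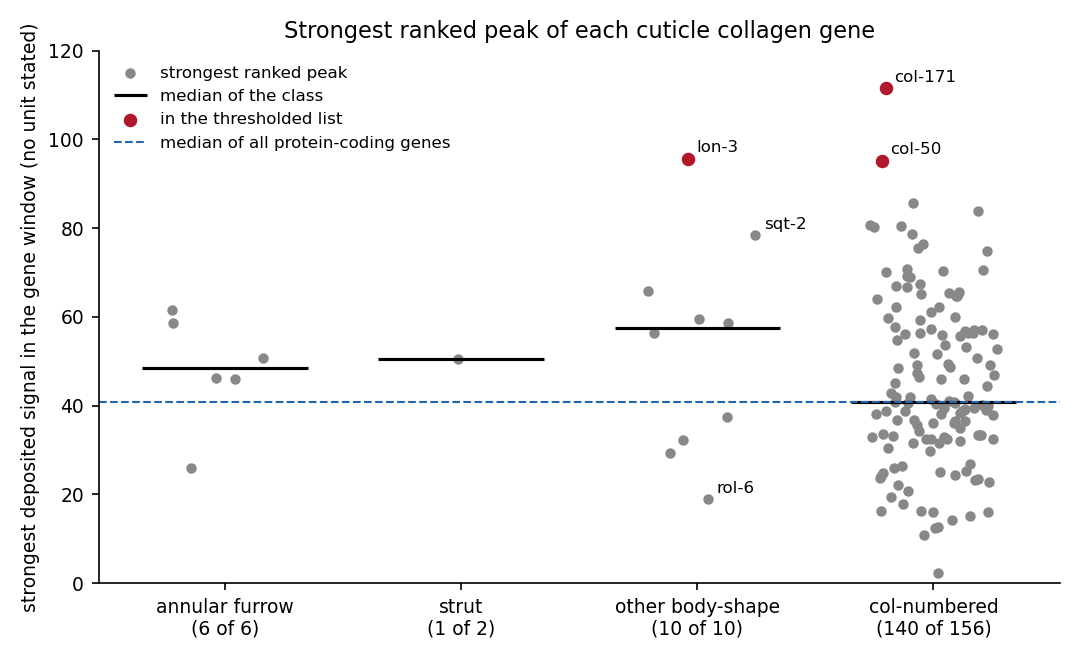
Strongest deposited signal (vertical axis, no unit stated) of the replicate-compared ranked list in the window of each collagen gene, by class (horizontal axis, with the number of genes that had a ranked peak). Black bars are class medians, red points are genes in the thresholded list and the dashed line is the median of all protein-coding genes; col-171 stands highest at 111.6, and the median of the col-numbered genes, 40.9, lies on the all-gene line.

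Among collagens of the annular furrows, the grooves that ring the body and are sensed by the epidermis as a sign of cuticle damage, all 6 genes had a ranked peak and none passed the threshold. Their median strongest signal was 48.5. The highest was dpy-10, at 61.7, with paired values of 39.1 in replicate 1 and 17.3 in replicate 2 and a coding summit 1440 bp after the start. It was followed by dpy-8 at 58.5 (30.7 in replicate 1, 27.1 in replicate 2), dpy-3 at 50.8 (28.2 in replicate 1, 23.4 in replicate 2) and dpy-9 at 46.2 (13.8 in replicate 1, 30.2 in replicate 2). In dpy-7 the signal was 46.0 (15.6 in replicate 1, 26.3 in replicate 2) with an intronic summit 229 bp after the start, and in dpy-2 it was 25.9 (11.4 in replicate 1, 17.9 in replicate 2). By paired signal, replicate 1 was higher at dpy-10, dpy-8 and dpy-3, and replicate 2 at dpy-9, dpy-7 and dpy-2. The order of these genes by paired signal thus differed between the replicates. Paired values are those of the strongest entry of a merged peak. In the replicates' own ranked lists dpy-7 had 31.0 in replicate 1 and 26.3 in replicate 2, the reverse direction. There dpy-10 was the highest of these genes in both lists, at 39.1 in replicate 1 and 31.4 in replicate 2 over its window.

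The strut collagens form the pillars that join the layers of the adult cuticle, and their loss gives fluid-filled blisters. For bli-1 there were 3 ranked peaks, the strongest at 50.6 with paired values of 20.03 in replicate 1 and 22.01 in replicate 2. In bli-2 no ranked peak was present in the replicate-compared, pooled or replicate 2 lists, and replicate 1's own ranked list gave 17.1.

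The other body-shape collagens covered the widest range among the phenotype-named classes, 18.98 to 95.7, with a median of 57.5, and all 10 had a ranked peak. After lon-3 and sqt-2 came dpy-17 at 65.9, with 19.3 in replicate 1 and 48.9 in replicate 2. The ranked list of replicate 1 alone held no peak there. Close together lay dpy-5 at 59.6 (32.6 in replicate 1, 26.2 in replicate 2), sqt-1 at 58.6 (32.98 in replicate 1, 33.6 in replicate 2) and dpy-13 at 56.4 (29.9 in replicate 1, 29.6 in replicate 2). The lowest were dpy-14 at 37.4 (17.8 in replicate 1, 19.004 in replicate 2), dpy-4 at 32.3 (22.04 in replicate 1, 24.7 in replicate 2), sqt-3 at 29.4 (3.15 in replicate 1, 14.1 in replicate 2) and rol-6 at 18.98 (15.7 in replicate 1, 12.1 in replicate 2). Mutations in rol-6 make worms roll, and the gene is widely used as a transformation marker. Across all 18 phenotype-named genes, 17 had a ranked peak and 14 had the strongest summit in coding sequence. The summit of sqt-3, 291 bp upstream of its start, was the only one of these 17 outside its gene.

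Of the 156 genes known only by a col number, 140 (89.7%) had a ranked peak. Their median strongest signal was 40.9, and it ranged from 2.37 in col-35 to 111.6 in col-171. The low value of col-35 was particular to the replicate-compared list. It had 27.3 in the pooled ranked list, 22.2 in replicate 1's own and 18.7 in replicate 2's. The strongest col-numbered genes were not drawn from a single chromosome. Medians over all members by chromosome ran from 38.9 on chromosome V to 46.0 on chromosome I, with 44 of the 174 genes on chromosome IV, 33 on V, 31 on II, 30 on X, 23 on I and 13 on III.

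In the permissive ranked list, a called region lay in slightly more of the collagen genes than of genes at large. A ranked summit lay in the window of 157 of 174 collagen genes, or 90.2% (exact 95% interval 84.8% to 94.2%), against 83.7% of all protein-coding genes. The all-gene share lay below this interval, which covers counting error only and treats genes as independent although some share peaks. The median collagen window was shorter, at 2220 bp against 3027 bp, so the count was also taken per length. It was 0.564 ranked peaks per kb in collagen windows and 0.456 over all gene windows. In the replicates' own lists both were lower, at 0.329 in collagen windows and 0.229 over all in replicate 1, and 0.304 in collagen windows and 0.204 over all in replicate 2. The median strongest signal per gene was close in the sets, at 42.0 for collagen genes and 40.9 for all genes. In the replicates' own ranked lists it was 30.4 for collagen genes and 28.9 for all genes in replicate 1, and 25.02 for collagen genes and 24.6 for all genes in replicate 2. These are descriptions of 1 set of regions, without a test, since genes are not replicates.

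Most collagen genes held 1 ranked peak (87 genes) or 2 (58 genes). The largest numbers were 6 in col-99, whose window spans 10946 bp, 5 in col-87 and 4 in col-46, and 9 genes held 3. In all there were 245 pairs of a collagen gene and a peak, from 239 distinct peaks. Of these peaks, 6 lay in the windows of 2 neighbouring collagen genes, as at col-3 and col-117, and 69 lay also in the window of another gene. Such peaks cannot be assigned to 1 gene. No ranked peak in any of the 4 ranked lists was found for 7 members: col-55, col-62, col-79, col-120, col-126, col-137 and col-181.

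Collagen genes had their strongest peaks in coding sequence more often than genes at large, a difference described here without a test. The strongest summit lay in coding sequence in 68.2% of collagen genes with a ranked peak (107 of 157), against 42.9% of all genes with one. It lay upstream in 18.5% of collagen genes and 26.3% of all genes with a ranked peak, and in an intron in 9.55% of collagen genes and 25.8% of all genes. Corrected for the length of each gene part, coding sequence held 0.801 summits per kb in collagen genes (137 summits) and 0.612 per kb over all genes, a ratio of 1.31. The kilobase upstream held 0.402 summits per kb in collagen genes (70 summits) and 0.403 over all genes. Introns held 0.425 per kb in collagen genes (28 summits) and 0.384 over all genes. Over all summits rather than the strongest of each gene, the upstream share ran the other way, at 28.6% in collagen genes and 20.9% over all genes, and the share within 500 bp upstream was 17.96% in collagen genes and 10.1% over all genes. Collagen genes are shorter (median 1220 bp against 2027 bp), so the upstream kilobase makes up more of their windows. Per length, the sets differed most in coding sequence, and their upstream densities were nearly equal.

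**Figure D2:**
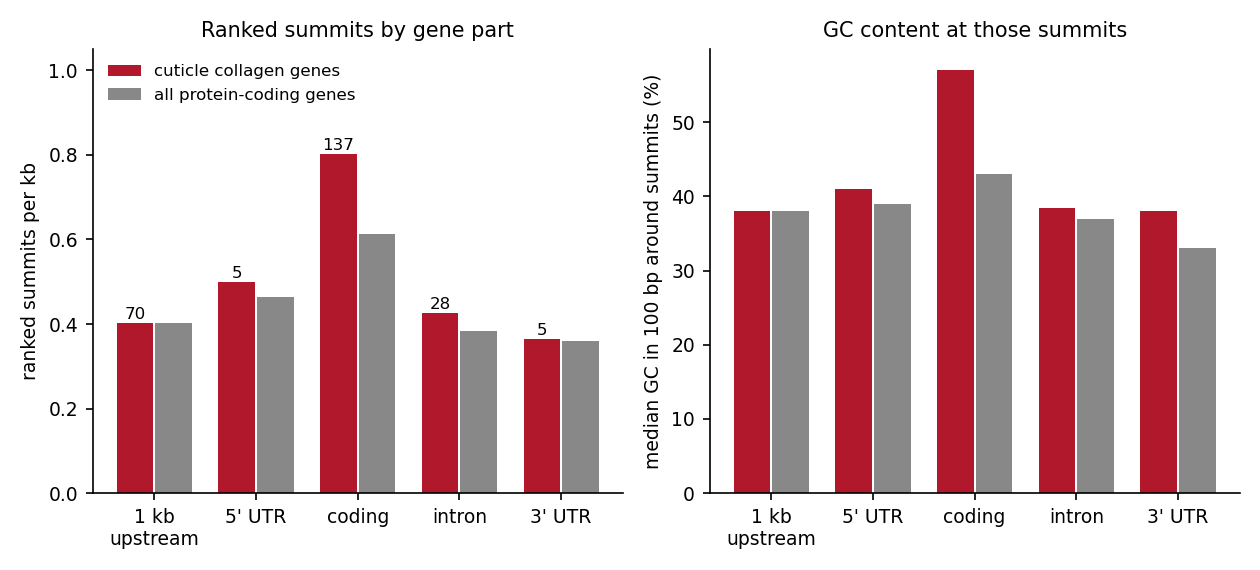
Ranked summits per kb of each gene part (left, vertical axis from 0, with the number of collagen summits above the bars) and median GC content of the 100 bp around those summits (right, in %), for cuticle collagen genes in red and all protein-coding genes in grey. Coding sequence stands out in both panels, at 0.801 summits per kb in collagen genes against 0.612 over all genes, and at 57% against 43% GC.

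Along the gene, summits of collagen genes gathered in the middle of these short genes. Counted in 200 bp bins from the annotated start, the density was highest from 400 to 600 bp after the start, at 0.9504 summits per kb (33 summits) against 0.522 over all genes. From 600 to 800 bp it was 0.838 (29 summits) against 0.471. The lowest bin, 800 to 600 bp before the start, held 0.230 per kb (8 summits) in collagen genes against 0.433 over all genes. In the last 200 bp before the start it was 0.546 per kb (19 summits) in collagen genes and 0.422 over all genes. For coding summits, the median place was 49.9% of the way along the coding sequence.

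**Figure D3:**
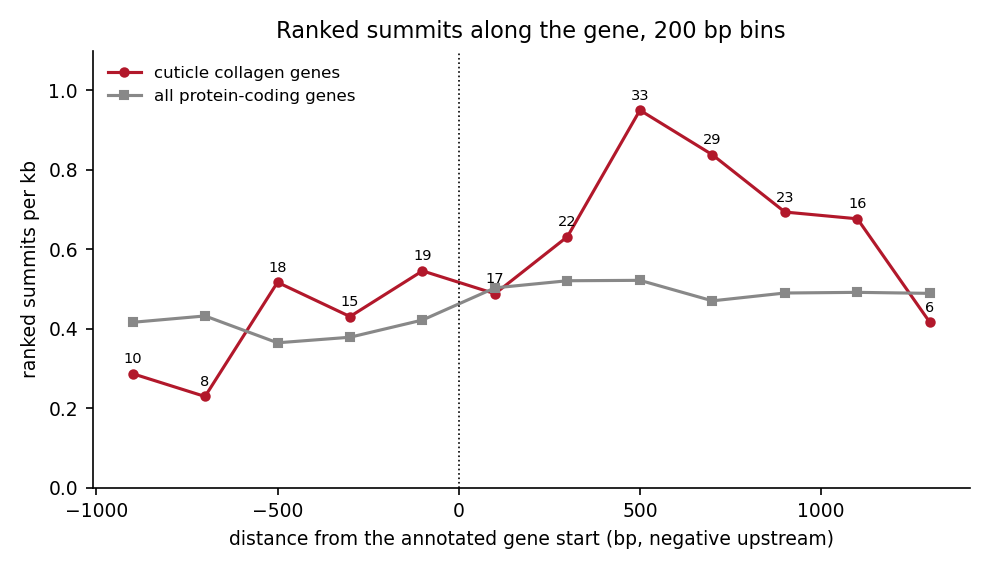
Ranked summits per kb in 200 bp bins (vertical axis) by distance from the annotated gene start (horizontal axis, bp, negative upstream), for cuticle collagen genes in red with the number of summits at each point and all protein-coding genes in grey. The collagen line is highest at 400 to 600 bp (0.9504 per kb) and lowest at 800 to 600 bp before the start (0.230 per kb), while the all-gene line stays between 0.365 and 0.522.

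The coding summits of collagen genes often lay in the repeat, which fills much of these coding sequences. In the 33 codons around the strongest coding summit, glycine codons made up a median of 27.3% and proline codons 21.2%. Whole collagen coding sequences had medians of 20.7% for glycine and 15.01% for proline. Over all stretches of 33 codons in the same 107 coding sequences, the mean glycine share per gene had a median of 21.7%. A median of single stretches and a median of means are unlike measures, so their difference is not read as a trait of summits. A run of at least 3 glycine codons, one at every 3 codons, was found in 84 of the 107 stretches around summits (78.5%). Over all stretches of this length in the same 107 coding sequences, the mean share with such a run was 67.4%. As in the printed sequences, col-174 and col-103 carried long runs and col-96 none.

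GC content moved with some of these results. The 100 bp around coding summits had a median GC content of 57% in collagen genes and 43% over all genes. Around upstream summits it was 38% in both sets. When all genes were split into 4 groups of nearly equal size by coding GC content, 168 of the 174 collagen genes (96.6%) fell in the highest group and 6 in the next. Over all genes, coding summits per kb were 0.466, 0.573, 0.655 and 0.753 from the lowest to the highest group. The share with a thresholded peak was 0.120%, 0.641%, 1.08% and 2.22% in the same order. The share with a ranked peak was 76.2%, 85.0%, 87.5% and 86.1%, and so did not rise into the highest group. All 174 collagen genes, including the 6 of the next group, were set against the 4826 other genes at or above the top-quarter limit. That cut takes in genes lying exactly on the limit. Collagen genes had 0.801 against 0.751 coding summits per kb and a median strongest signal of 42.0 against 47.7. Their thresholded share was 1.72% against 2.24%. Collagen windows were shorter than those of the 4826 other genes too, 2220 bp against 2889 bp. Among collagen genes themselves the rank correlation of coding GC with strongest signal was −0.16 over 157 genes, a description across genes that share libraries. The part of GC content in the coding excess was not tested.

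The upstream summits of collagen genes were weaker than the coding ones, with a median signal of 31.0 for upstream summits and 39.4 for coding summits. Over all genes the order was the same, with medians of 31.3 for upstream summits and 34.5 for coding summits. The strongest upstream peaks were at col-106 (63.8, 884 bp before the start), col-110 (56.3, 530 bp before), col-175 (56.1, 331 bp before) and col-114 (49.2, 195 bp before). In col-106 a coding peak of 68.9 was stronger still. A second dpy-10 peak, of 48.4, lay 99 bp before the start, with paired values of 14.5 in replicate 1 and 31.4 in replicate 2, the reverse of its coding peak. The col-114 summit lay also in the window of D2024.1, and this dpy-10 summit in that of T14B4.19. The 250 bases before the start of col-114 (chrIV:7246654-7246903, minus strand) and of dpy-10 (chrII:6712228-6712477, minus strand) are printed as examples of a proximal summit in AT-rich sequence, written 5′ to 3′ on the gene's strand, with TATAAA on either strand in capitals.
col-114: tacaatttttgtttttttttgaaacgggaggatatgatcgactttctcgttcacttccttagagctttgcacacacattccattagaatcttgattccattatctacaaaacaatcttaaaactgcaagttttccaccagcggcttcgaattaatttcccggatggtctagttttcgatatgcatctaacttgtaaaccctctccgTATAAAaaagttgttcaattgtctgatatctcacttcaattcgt
dpy-10: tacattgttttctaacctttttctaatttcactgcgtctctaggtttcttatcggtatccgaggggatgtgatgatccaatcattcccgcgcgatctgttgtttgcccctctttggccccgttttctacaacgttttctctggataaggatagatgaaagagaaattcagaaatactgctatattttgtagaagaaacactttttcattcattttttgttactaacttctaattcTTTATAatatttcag

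Their GC content was 35.6% in each. The same stretch of col-99, with a signal of 48.8 and a summit 117 bp before the start, is not printed. Its GC content was 42.8% and it held no TATAAA, so the printed pair does not stand for all such summits. Motifs of 6 letters were searched on both strands in promoters (250 bases before to 50 after the annotated start) and in the 100 bp around summits. Many worm transcripts are trans-spliced, so an annotated start can lie downstream of the true one. TATAAA, the core of the TATA box, was present in 116 of 174 collagen promoters (66.7%) against 37.9% of all promoters. Around summits it was present in 5.86% of the 239 collagen peaks and 8.17% of all ranked peaks. AGGTCA, a nuclear receptor half-site, was present in 14.9% of collagen promoters and 8.26% of all promoters, and around 4.18% of collagen summits and 2.73% of all ranked summits. TGATAA, a site of GATA factors, was present in 29.9% of collagen promoters and 30.2% of all promoters, and around 3.35% of collagen summits and 8.31% of all. The word AGCGCG was present around 1 of 239 collagen summits (0.418%) and 1.42% of all ranked summits. Around the 69 upstream collagen summits TATAAA was present at 10 (14.5%), TGATAA at 7 (10.1%), AGGTCA at 1 and AGCGCG at 0. The share around upstream summits of all genes was not computed, so these counts are set against nothing. Shares in promoters of 300 bases and in the 100 bp around summits differ in length and are not compared with each other.

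The replicates were compared peak by peak through the paired signals. Over the 245 collagen pairs paired signals had a median of 19.4 in replicate 1 and 16.9 in replicate 2. Over all genes the medians were 17.3 in replicate 1 and 14.96 in replicate 2. Replicate 1 was higher in 146 of the 245 pairs (59.6%), against 56.0% over all genes. The median log2 ratio of replicate 1 to replicate 2 was 0.27 for collagen peaks and 0.16 for all. For peaks in the upstream kilobase of collagen genes it was -0.017, so the excess of replicate 1 was not seen there. The ratio for upstream peaks of all genes was not computed, so this is not read as a trait of collagen genes. Signals of the replicates were weakly related, with a rank correlation across collagen peaks of 0.303 and of 0.235 over all genes. These correlations run across peaks of the same 2 libraries, which are not independent. Of the 25 strongest members, 18 were higher in replicate 1.

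**Figure D4:**
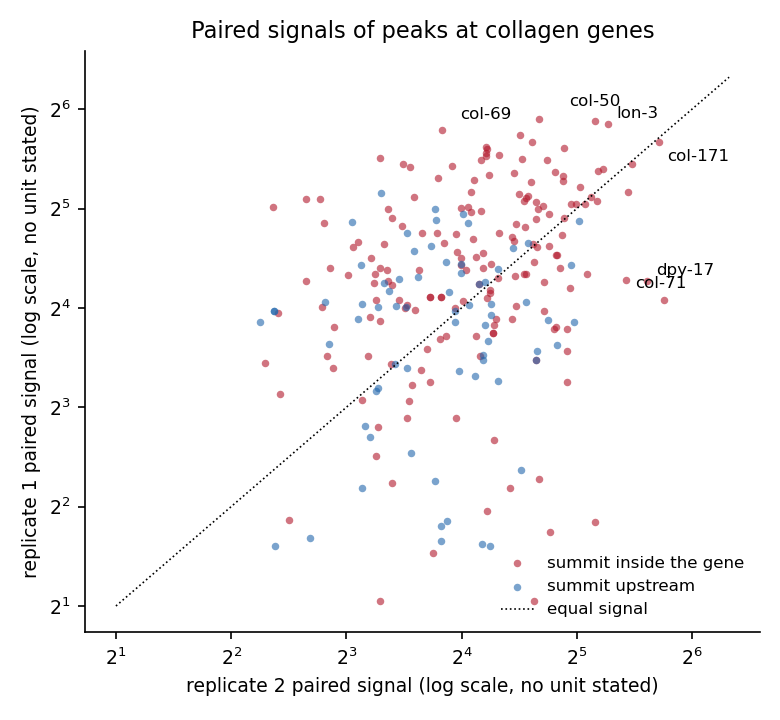
Paired signal in replicate 1 (vertical axis) against replicate 2 (horizontal axis), both on log scales with no unit stated, for each ranked peak in a collagen window, in red where the summit lay inside the gene and in blue where it lay upstream. The dotted line marks equal signal; col-171 (50.8 in replicate 1, 52.5 in replicate 2) lies near it, col-69 and col-50 lie above it, and dpy-17 and col-71 lie below it.

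In the replicates' own ranked lists, 84 of 174 collagen genes (48.3%) had a peak in both, against 38.6% of all genes. A peak was found in replicate 1 alone for 30 collagen genes, in replicate 2 alone for 23 and in neither for 37. The strongest collagen genes of replicate 1's own list were col-69 (59.6), col-50 (59.1) and lon-3 (57.6), and those of replicate 2's were col-71 (54.1), col-171 (52.5) and dpy-17 (48.9). No gene was among the strongest 3 of both lists. In the other replicate's list, lon-3 and col-171 each ranked 7th, col-50 13th, col-69 48th and col-71 71st, and dpy-17 had no peak. Over the 84 genes with a peak in both, the rank correlation of the strongest signals was 0.183.

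Collagen genes made largely of sequence that recurs in the genome carried lower signals. For each gene the share of its 31-base words found more than once in the genome was computed, since short reads from such sequence can match several places. A word repeated only within its own gene was counted too. In 22 members this share was 50% or more. They included col-3, col-117, col-12, col-13, col-92 to col-94 and col-166 to col-170. Of these 22 genes, 16 (72.7%) had a ranked peak, against 141 of the other 152 (92.8%). Over these 16 genes the median strongest signal was 18.6 (range 10.8 to 45.1), against 46.2 over the 141. In 3 of the 16 (18.8%) the strongest summit was coding, against 104 of 141 (73.8%). The median coding GC content of the repeated genes was the higher, at 59.6% against 54.5%.

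Single genes gave examples. In col-12, with 71.8% of its words repeated, the strongest signal was 40.6, with 12.3 in replicate 1 and 28.4 in replicate 2, from an upstream summit. In col-13, with 83.6% repeated, it was 10.8, with 4.57 in replicate 1 and 8.81 in replicate 2, also upstream. In col-62, with 91.2% repeated, no ranked list held a peak. Low values of these genes are uncertain, the treatment of reads with several matches is not stated, and its part in the difference was not tested. The rank correlation of the repeated share with strongest signal was −0.35 over 157 members.

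**Figure D5:**
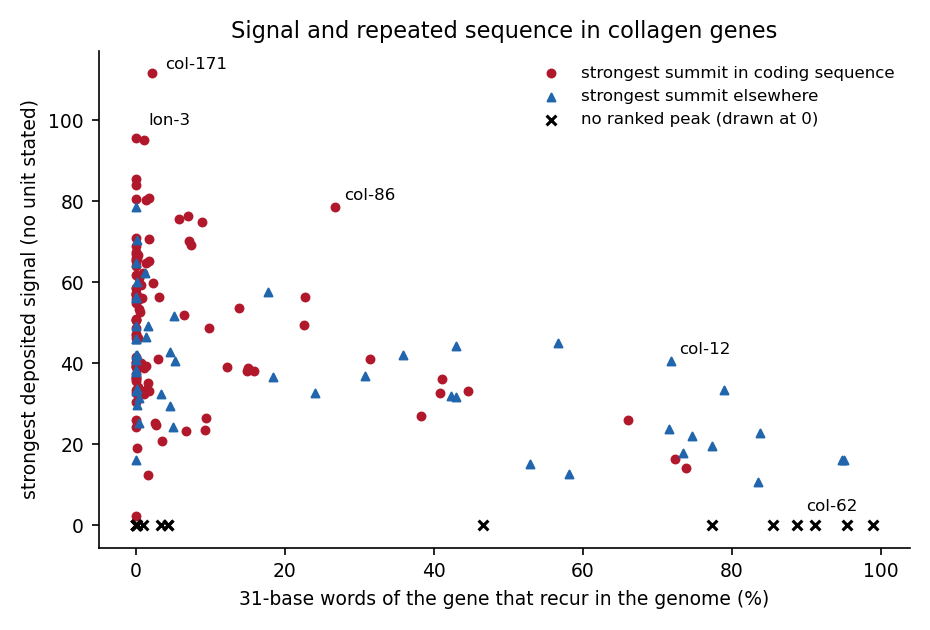
Strongest deposited signal of each collagen gene (vertical axis, no unit stated) by the share of the gene's 31-base words that recur in the genome (horizontal axis, %). Red circles have the strongest summit in coding sequence, blue triangles elsewhere, and crosses drawn at 0 are genes without a ranked peak; no gene with 50% or more repeated words exceeds 45.1, while the others reach 111.6.

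A pair of collagen genes named for mutant phenotypes fell outside the symbols that define the set. The peak of bli-6 (IV:6377065-6378168, plus strand), a blister collagen, was stronger than any member's, at 120.1 with 55.0 in replicate 1 and 63.1 in replicate 2. Its summit lay 616 bp after the start, its IDR was 0.000902 and its q-value 0.0794, and it passed in both the replicate-compared and the pooled lists. The peak of rol-8 reached 56.8, with 23.2 in replicate 1 and 24.0 in replicate 2.

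Genes that make, process or surround the cuticle, and regulators of the epidermis, were read against shares of 83.7% of all genes with a ranked peak and 1.02% with a thresholded one. At so low a share, the lack of a thresholded peak in these 5 short lists is not a result about them. All 13 collagen-processing enzymes had a ranked peak, with a median strongest signal of 55.0. The highest was phy-2, a catalytic subunit of the prolyl hydroxylase that modifies collagen, at 75.5 (38.4 in replicate 1, 30.7 in replicate 2) with a summit 193 bp before its start. Next was doxa-1, a maturation factor of the oxidase that drives cuticle cross-linking, at 72.4 (45.9 in replicate 1, 25.9 in replicate 2). In the 3 basement membrane collagens the signal was 60.9 for emb-9, 59.8 for let-2 and 47.0 for cle-1. Type IV collagen chains are encoded by emb-9 and let-2 and are not part of the cuticle, and the median coding GC content of the 3 was 53.6%, near that of cuticle collagens.

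All 13 cuticlins and other apical matrix genes had a ranked peak, with a median of 45.9, led by noah-1 (68.4) and lpr-3 (61.7). All 10 moulting factors had one, with a median of 45.3, led by mlt-11 (70.6) and mlt-8 (57.6). All 9 epidermal regulators had one, with a median of 53.6, led by lin-42 (67.3), which times the moulting cycle, and lin-26 (60.3), an epidermal fate regulator. The windows of these 5 lists were longer than those of cuticle collagens, with medians from 5343 to 9744 bp, and longer windows give more chances of a peak. Per kb, ranked peaks ranged from 0.522 in the moulting list to 0.600 in the cuticlin list, around the 0.564 of the cuticle collagens and above the 0.456 of all genes.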

How the data were processed

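The authors deposited 8 peak lists on assembly ce11, per the labels and notes beside them. No aligner or peak caller is named, these being not given in the sources used here. The deposited lists hold a signal per peak, a score with no stated unit, and −log10 q-values and −log10 IDR values from the authors' processing. Each thresholded list was checked to equal its ranked entries with an IDR of 0.01 or less. The paired signals were tied to replicates by identical intervals: 53.9% of the first paired intervals were intervals of replicate 1's own ranked list and 0 of replicate 2's, and 44.9% of the second were intervals of replicate 2's and 0 of replicate 1's.

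Entries overlapping by 1 bp or more were merged, keeping the summit and paired signals of the strongest entry and the best IDR and q-value. Gene models came from Ensembl release 115 (WBcel235, the same assembly as ce11), sequence from its RefSeq copy, and coordinates are 1-based. Analysis used Python 3.11.15, pandas 2.3.3, numpy 2.4.6, scipy 1.17.1 and matplotlib 3.10.9. The assignment of peaks to gene windows, the summit positions and the merging were tested on simulated peaks, and the other steps were not. Intervals on shares are exact Clopper-Pearson at 95% and cover counting error only. With 1 group of 2 replicates, no control and no read counts, no test was made and the precision of single peaks is unknown.

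Genes were named by rule: members with a thresholded peak, the 10 strongest, those with the most or no ranked peaks, the phenotype-named members, and of each related list those with a thresholded peak and the strongest pair. Other genes were named after their values were seen. The members and lists were chosen with earlier results of these data known. Alternatives covered the deposited list, each replicate alone, merging, the gene window, peak position, thresholds, the GC window and repeated genes.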

Additional observations from a re-analysis of the deposited data

How the results depend on the processing

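Of 76 alternatives over 7 summary values, 49 kept the value within its limits, 26 moved it and 1 reversed it. The lists of single replicates gave 0 to 0 collagen genes with a thresholded peak and 61.5% to 65.5% with a ranked peak. They gave 0.304 to 0.329 ranked peaks per kb and a median strongest signal of 25.02 to 30.4. Summits within 500 bp upstream made up 9.85% to 13.99%, against 17.96% in the replicate-compared list. The share over all genes was 10.1% in the replicate-compared list and was not computed for the single replicates. Median GC around summits was 51% to 53% (50% with both). With the window from 2 kb upstream, 6 genes had a thresholded peak (col-48, col-51 and col-94 were added, col-51 through the peak already counted for col-50), 94.8% a ranked one, and GC was 46%. With the upstream kilobase alone these were 0 genes, 39.1% and 38%, the median strongest signal was 31.6, and the median log2 ratio of replicate 1 to replicate 2 was -0.017 in place of 0.27. Counting overlapping intervals in place of summits gave 96.0% with a ranked peak and 46% GC. Unmerged entries gave 94.3% and 1.26 per kb. Peaks at or above the median signal gave 0.352 per kb and a median of 50.6. The thresholded count was 0 at an IDR of 0.001, 9 at 0.05 and 0 at a q-value of 0.05. An IDR of 0.05 called 4.19% of all genes. Leaving out the 22 members with repeated sequence, an alternative chosen after seeing the data, kept all 7 values (3 thresholded genes, 92.8% with a ranked peak, median signal 46.2). The causes of these shifts were not tested.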

Other observations

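A thresholded peak at col-48 lay outside its window, 1125 bp upstream of the start, with a signal of 112.6, and one at col-94 lay 1751 bp upstream with 97.8. The stronger of these exceeds the signal of every peak inside a member's window, though not that of bli-6, which is not a member. Both were counted with the window from 2 kb upstream, that of col-48 also when overlapping intervals replaced summits. The longer window gave a thresholded peak to 1.20% of all genes.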
